A study of Mus musculus with 6 samples.

Results

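The genes described here are 10 tetraspanins of blood cells: Tspan33, Tspan32, Cd81, Cd151, Cd37, Cd82, Cd63, Cd53, Tspan3 and Cd9. They form a list of gene names drawn up when earlier results of these data were known, and are 10 of 34964 gene names on the array, with 16 probes between them. Their RNA was measured on 6 arrays, 1 sample each, from G1E-ER-GATA-1 cells. This is a mouse erythroid progenitor line whose own Gata1 gene is disrupted and which makes a fusion of GATA-1 with the hormone-binding part of the oestrogen receptor. Adding oestradiol turns this fusion on. In 3 samples the cells were nucleofected with an siRNA against Mi2β (Mi2β siRNA), the nucleosome-remodelling ATPase of the NuRD complex that the Chd4 gene encodes. The other 3 were given a non-targeting siRNA (control siRNA). All 6 samples shared the rest of the protocol: siRNA at 0 h and again at 24 h, oestradiol from 24 h on, and harvest at 48 h, so that GATA-1 had been switched on for 24 h in both groups. A single cell line was used, and no label says whether the replicates were separate cultures. The p-values therefore reflect the spread among these arrays alone, and that spread may be technical. In RNA from whole cultures, fewer cells of a type and less RNA per cell cannot be told apart.

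Tetraspanins are small proteins that cross the membrane 4 times and bind each other and partner proteins, such as integrins, immunoglobulin-family receptors and the sheddase ADAM10, in membrane microdomains. They steer the traffic of these partners to the cell surface, set how firmly cells adhere, and are abundant on late endosomes and exosomes. Maturing red cells shed much of their surface membrane in exosomes, and some tetraspanins are largely restricted to blood cells.

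Levels are given as log2 of the background-subtracted signal minus the 75th percentile of that array, so that 0 is the level of a probe at that percentile. A gene "rose" or "fell" where its limma test gave a Benjamini-Hochberg adjusted p under 0.05 over all 22133 genes tested. Changes are Mi2β siRNA minus control siRNA. Different probes bind with different strength, so levels are compared between arrays and not between probes. The share of spots well above background was 61.5%, 74.0% and 48.9% on Mi2β siRNA arrays 1 to 3, against 53.4% to 56.8% on the control siRNA arrays. Mi2β siRNA replicate 2 therefore stood apart, and results that rest on it are also given without it. Chd4 was at 4.59 ± 0.04 with Mi2β siRNA and at 5.89 ± 0.13 with control siRNA (SD, n = 3 each), a change of -1.31 (SE 0.10, adjusted p = 0.00161 by limma), and it fell under all 17 processing alternatives. Its probe lies at chr6:125080458-125080517 (mm9), and the labelled target was thus lower on every array of the knockdown.

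Of the 10 tetraspanins, 7 had a probe that was bright enough to test, well above background on 3 or more arrays. Tspan32 and Tspan33 fell and none rose. Over all genes tested, 9.56% passed the test, 4.99% rising and 4.56% falling. The other 5 tetraspanins tested did not pass. At an unadjusted p under 0.05 limma gave 3 lower members, Cd82 being the one added, and 0 higher. The share of all genes at that looser cutoff is not given, so no count at it can be set against a background. The median change of the 7 was -0.18, beside -0.03 over all genes tested. In 4 of the 7, Tspan32, Tspan33, Cd82 and Cd151, the 3 arrays with Mi2β siRNA all lay below the 3 with control siRNA. Such a gap, in that direction, was present in 18.4% of all genes tested, and in either direction in 31.1%.

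Tspan32 (also called Tssc6 or Phemx) is a tetraspanin of blood cells that in mice binds the platelet integrin αIIbβ3 and restrains T cell proliferation. It was lower with Mi2β siRNA on each of its 3 probes. The probe with the highest signal, A_55_P2010386, read 5.99, 5.88 and 6.26 on the Mi2β siRNA arrays, against 6.88, 6.80 and 6.59 on the control siRNA arrays. The groups did not overlap, and the change was -0.71 (SE 0.14, 95% interval -1.06 to -0.37, adjusted p = 0.033 by limma), or 1.64-fold lower. The second probe, A_51_P221248, read 3.80, 3.59 and 4.10 with Mi2β siRNA, against 4.69, 4.61 and 4.49 with control siRNA. Again every knockdown array was below every control array, and Mi2β siRNA replicate 3 was the highest of its group on this probe and on the first. In the fit per probe, 8.19% of 31853 probes passed, 4.31% rising and 3.88% falling, and 4 of the 12 tetraspanin probes tested fell. There the groups were apart on 6 of the 12, beside 29.9% of all probes and 17.5% for probes lower with Mi2β siRNA. This probe fell by 0.77 on the log2 scale (SE 0.16, adjusted p = 0.0399 by limma). The third probe, A_55_P2245852, read 0.42, 0.48 and 0.81 with Mi2β siRNA, against 1.56, 1.52 and 1.81 with control siRNA. Its change was the largest of the 3, -1.06 (SE 0.15, adjusted p = 0.0129 by limma, fit per probe), or 2.08-fold lower.

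The 3 Tspan32 probes read different stretches of the gene's transcripts, and they are shown because all 3 fell. On the array A_55_P2245852 is annotated to 1 RefSeq transcript of Tspan32 and the other 2 probes to another. Whether transcript variants changed differently was not tested. In the order of the gene on the plus strand of mm9, A_55_P2245852 lies at chr7:150191020-150191079, A_51_P221248 at chr7:150203530-150204606 and A_55_P2010386 at chr7:150205329-150205388. The middle probe is 60 bases long but spans more genome than that, so it crosses an intron. The last probe holds AATAAA, the letters of a polyadenylation signal, and 30 bases around it are given with those letters in capitals.
Tspan32 A_55_P2245852: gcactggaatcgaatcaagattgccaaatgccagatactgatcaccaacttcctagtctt
Tspan32 A_51_P221248: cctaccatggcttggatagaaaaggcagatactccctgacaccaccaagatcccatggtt
Tspan32 A_55_P2010386: actcctctccctAATAAAcccattgattct
The change of A_55_P2245852 differed from that of A_55_P2010386 by -0.34 (SE 0.18), and the difference between the probes did not overlap between the groups. The change of A_51_P221248 differed from that of A_55_P2010386 by -0.06 (SE 0.05), and there the groups overlapped. These are among 5 pairs compared by a two-sided exact permutation test, in which 3 arrays against 3 cannot give a p below 0.1. The p was 0.1 for the first pair and 0.4 for the second (0.125 and 0.4 after Benjamini-Hochberg adjustment over the 5), so no pair could pass a threshold of 0.05.

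Tspan33 (also called Penumbra) is a tetraspanin of erythroid progenitors, needed for normal red cell production in mice. It belongs to the TspanC8 group, which carries ADAM10 to the cell surface. Its probe read 6.76, 6.70 and 6.82 with Mi2β siRNA, against 7.27, 7.29 and 7.20 with control siRNA. Both groups were tight and apart: the SD was 0.06 with Mi2β siRNA and 0.05 with control siRNA. Tspan33 fell by 0.49 on the log2 scale (SE 0.09, 95% interval -0.70 to -0.27, adjusted p = 0.0237 by limma), or 1.40-fold lower. Its raw signals were high, 41123 to 48255 with Mi2β siRNA and 56050 to 57668 with control siRNA, but no spot of it was marked as saturated. The probe, A_55_P2086664, lies at chr6:29668498-29668557 on the plus strand of mm9 and also holds AATAAA, in capitals in these 30 bases of it.
Tspan33 A_55_P2086664: ggcagaaatggcAATAAAagtttgttgaca
The fall of Tspan33 was therefore read at a single place in its transcript.

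Neither fall held under every processing alternative. Tspan32 was lower under all 17 alternatives, with changes of -0.95 to -0.63 and adjusted p of 0.00312 to 0.181, and passed in 8. Tspan33 was lower under all 17 too, with changes of -0.72 to -0.41 and adjusted p of 0.00287 to 0.432, and also passed in 8. Without Mi2β siRNA replicate 2, the array that stood apart, Tspan32 changed by -0.63 (adjusted p = 0.0952 by limma) and Tspan33 by -0.46 (adjusted p = 0.0842 by limma). The calls did not hold without control siRNA replicate 1, control siRNA replicate 2 or Mi2β siRNA replicate 1 either, with adjusted p of 0.116, 0.106 and 0.136 for Tspan32 and 0.0917, 0.0733 and 0.116 for Tspan33. Without Mi2β siRNA replicate 3 the call for Tspan33 was lost as well (adjusted p = 0.0576 by limma).

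**Figure D1:**
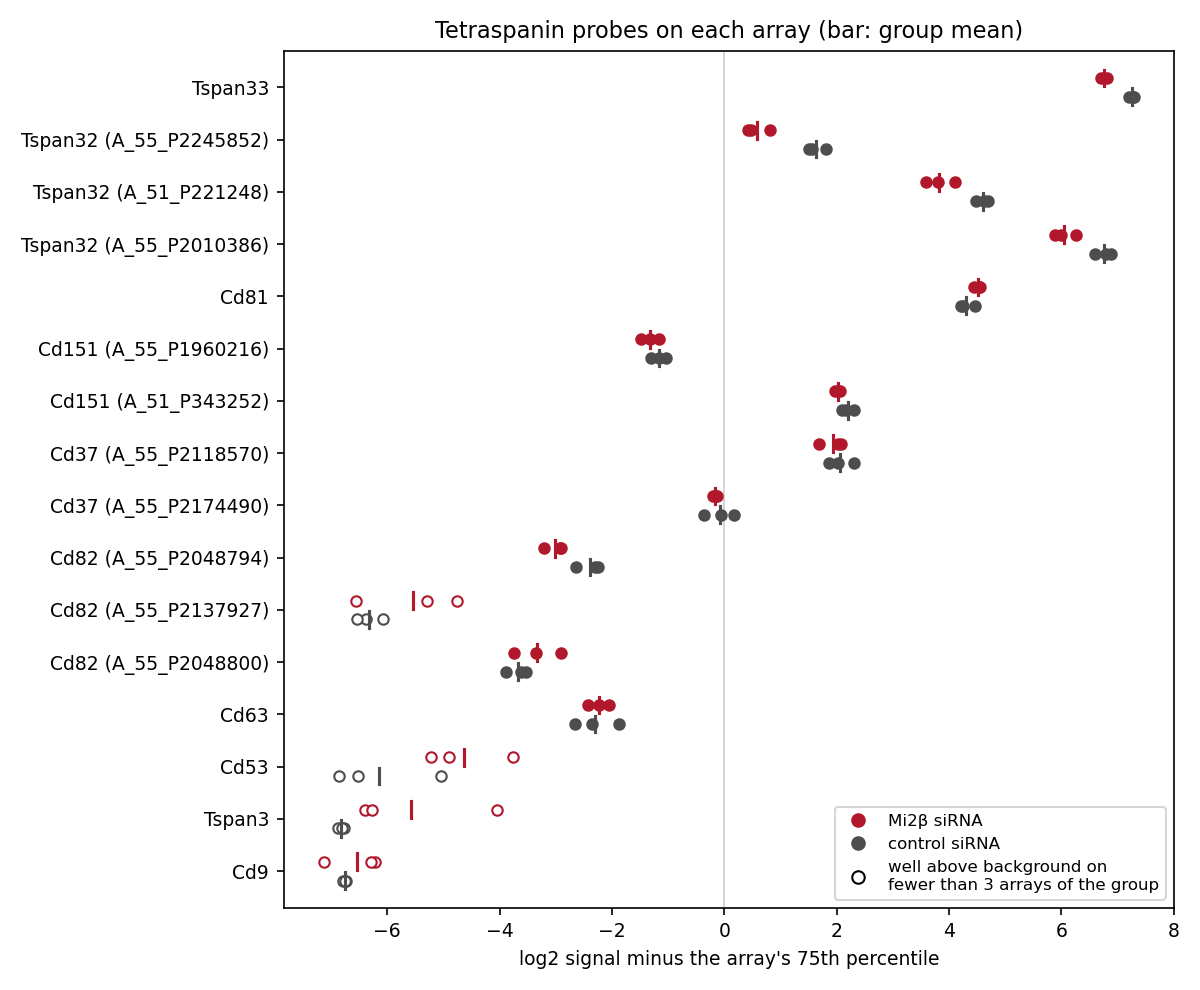
Level of each of the 16 probes of the 10 tetraspanins on each array, as log2 signal minus the 75th percentile of the array. Points are arrays (Mi2β siRNA above, control siRNA below in each row), bars are group means, and open points mark groups with fewer than 3 arrays well above background. The Mi2β siRNA points of Tspan33 and of the 3 Tspan32 probes lie to the left of all control siRNA points.

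Among the other members that were tested, Cd82 had 2 probes that went opposite ways. Cd82 (Kai1) is a broadly expressed tetraspanin known as a suppressor of metastasis and, in mice, for keeping blood stem cells quiescent. Its brighter probe, A_55_P2048794 (chr2:93259268-93259327, minus strand, mm9), read -3.21, -2.90 and -2.93 with Mi2β siRNA, against -2.30, -2.25 and -2.63 with control siRNA. The groups did not overlap, but the change of -0.62 (SE 0.15) missed the threshold (adjusted p = 0.0597 by limma). Its second tested probe, A_55_P2048800 (chr2:93274019-93274078), read -3.36, -2.90 and -3.75 with Mi2β siRNA, against -3.89, -3.62 and -3.53 with control siRNA. Here the groups overlapped, and the change was 0.35 (SE 0.23, adjusted p = 0.465 by limma, fit per probe). Without Mi2β siRNA replicate 2 it was 0.13 (adjusted p = 0.749 by limma, fit per probe). Both probes were dim, with signals of 48 to 75 for A_55_P2048794 and 25 to 53 for A_55_P2048800. With normexp background correction their changes shrank to -0.35 and 0.10. The changes of the 2 probes differed by -0.96 (SE 0.32, exact permutation p = 0.1, 0.125 after adjustment). The remaining Cd82 probe, A_55_P2137927 (chr2:93260018-93260077), was well above background on 1 Mi2β siRNA array and on 0 control siRNA arrays and was not tested. With the mean over the probes in place of the brightest, the Cd82 change was -0.14 (adjusted p = 0.647 by limma). Cd82 passed under 3 of the 17 alternatives: the filter on all 6 arrays (adjusted p = 0.0297), array weights (adjusted p = 0.00826) and without control siRNA replicate 3 (adjusted p = 0.0479).

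Cd81 is a widely expressed tetraspanin that, in humans, serves as a receptor for hepatitis C virus. It lies next to Tspan32 on chromosome 7. Its probe (chr7:150253737-150253796, mm9) read 4.53, 4.45 and 4.54 with Mi2β siRNA, against 4.22, 4.46 and 4.25 with control siRNA. Control siRNA replicate 2 lay among the Mi2β siRNA arrays, and the change of 0.20 (SE 0.10, 95% interval -0.05 to 0.46) did not pass (adjusted p = 0.309 by limma). It turned to -0.03 with arrays scaled to their median.

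Cd151 binds laminin-binding integrins and in humans carries a blood group antigen of red cells. Its brighter probe (chr7:148657237-148657297, mm9) read 2.06, 2.02 and 1.97 with Mi2β siRNA, against 2.17, 2.30 and 2.10 with control siRNA. The groups were apart but close, with a change of -0.18 (SE 0.10, 95% interval -0.41 to 0.06, adjusted p = 0.337 by limma). The other Cd151 probe changed by -0.16 (adjusted p = 0.553 by limma, fit per probe). Cd37, a tetraspanin found mainly on B cells and other leukocytes, read 2.02, 1.69 and 2.07 with Mi2β siRNA, against 2.30, 2.02 and 1.86 with control siRNA (chr7:52489002-52489061, mm9). Its groups overlapped, with a change of -0.13 (SE 0.17, 95% interval -0.54 to 0.28, adjusted p = 0.695 by limma), and its other probe changed by -0.08 (adjusted p = 0.814 by limma, fit per probe).

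Cd63 marks late endosomes, exosomes and the dense granules of platelets. Its probe (chr10:128349813-128349872, mm9) read -2.23, -2.06 and -2.42 with Mi2β siRNA, against -2.36, -2.65 and -1.87 with control siRNA. The control siRNA arrays spread on both sides of the others. The change was 0.06 (SE 0.22, 95% interval -0.48 to 0.60, adjusted p = 0.903 by limma), and its sign turned under 4 of the 17 alternatives. That interval is wide and allows a rise of up to 0.60 or a fall nearly the size of that of Tspan33.

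**Figure D2:**
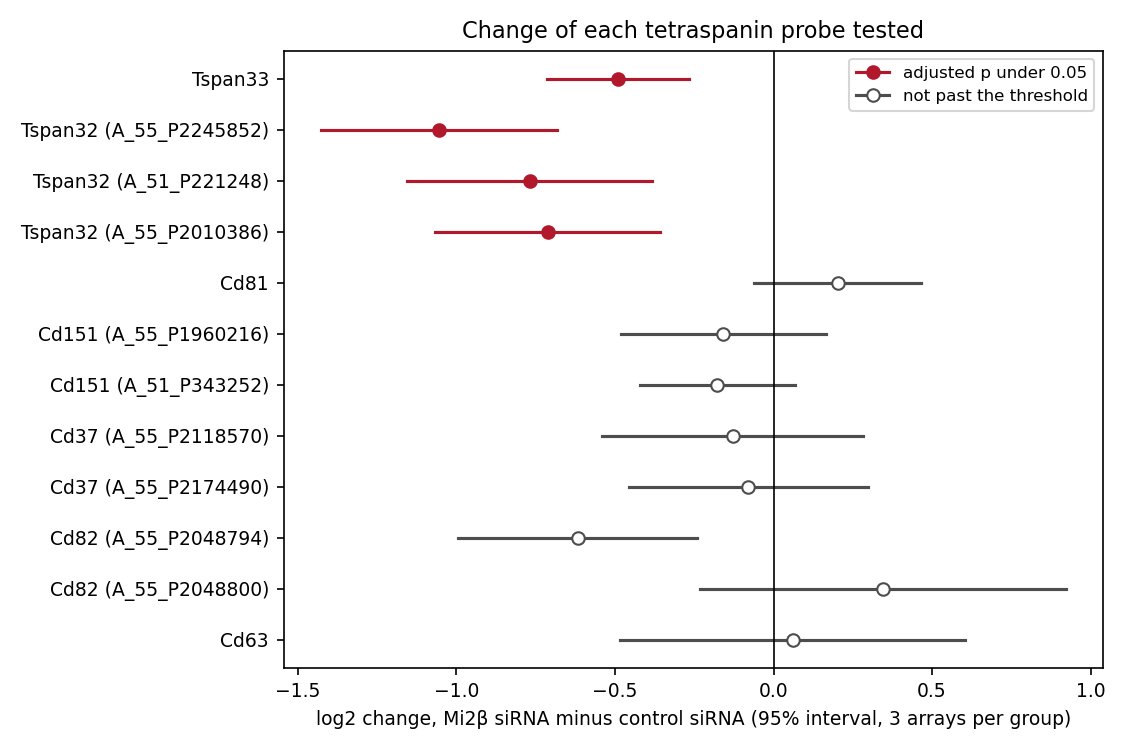
Change of each of the 12 tested tetraspanin probes, as log2 of Mi2β siRNA minus control siRNA, with its 95% interval from the fit per probe (3 arrays per group). Filled points passed an adjusted p of 0.05: the 3 Tspan32 probes and the Tspan33 probe, all lower, while 0 probes rose and the 2 Cd82 probes lie on opposite sides of 0.

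Cd53, Tspan3 and Cd9 were too dim to be tested in these cells. Cd53, a tetraspanin of leukocytes, read -4.90, -3.77 and -5.22 with Mi2β siRNA, against -5.04, -6.86 and -6.52 with control siRNA (chr3:106565046-106566140, mm9). It was well above background on 2 of 3 Mi2β siRNA arrays and on 0 of 3 control siRNA arrays. A bound of 1.13-fold higher with Mi2β siRNA came out, but it is not a firm least fold. It includes Mi2β siRNA replicate 3, whose -5.22 lay below the lowest signal well above background on that array, -4.32. The 2 groups overlapped, control siRNA replicate 1 lying above Mi2β siRNA replicate 3. That bound sets the mean of the Mi2β siRNA arrays against, on each control siRNA array, the higher of the probe's own value and the lowest signal well above background. It rests on Mi2β siRNA replicate 2: without that array, an alternative added after seeing the data, the Mi2β siRNA mean of -5.06 lay below the control siRNA bound of -4.80 and no fold can be given. Tspan3, which in mice sustains leukaemia cells, read -6.39, -4.06 and -6.28 with Mi2β siRNA, against -6.87, -6.77 and -6.81 with control siRNA (chr9:55983732-55983791, mm9). Its 1 array well above background was Mi2β siRNA replicate 2, the one with the largest share of spots well above background. Cd9, which is abundant on platelets and megakaryocytes, did not stand well above background on any of the 6 arrays (chr6:125410387-125410446, mm9). When the filter on dim probes was dropped, none of the 3 passed (limma adjusted p of 0.335 for Cd53, 0.464 for Tspan3 and 0.761 for Cd9).

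Tspan32 and Cd81 lie side by side on chromosome 7, yet Tspan32 fell and Cd81 did not pass. The level of Tspan32 minus that of Cd81 was 1.46, 1.43 and 1.72 with Mi2β siRNA, against 2.66, 2.34 and 2.35 with control siRNA. The change of this difference was -0.92 (SE 0.14). The groups did not overlap, and the exact permutation p was 0.1, the smallest this design allows (0.125 after adjustment over the 5 pairs). The nearest 2 genes on either side of each member were also read, in RefSeq order. Of 29 such neighbours outside the members that were tested, 2 rose (Tspan18 and Irf5) and 0 fell. Over all genes tested, 4.99% rose and 4.56% fell, and no result about the neighbours is drawn from these counts. At an unadjusted p under 0.05 by limma 2 were lower, a count without a background share. Tspan18 entered the test through its Mi2β siRNA arrays alone. Irf5, an interferon regulatory factor that lies next but one to Tspan33, rose by 0.57 (SE 0.10, adjusted p = 0.025 by limma) and was named after its value was seen. The immediate neighbours of Tspan33, Tnpo3 and Smo, changed by -0.08 and 0.05 and did not pass.

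The promoters of the genes that fell and of the neighbour Cd81 are shown because GATA-1 was active in all samples and the siRNA targeted a chromatin remodeller. All 10 members had a promoter in the RefSeq table of GRCm38.p6, whose coordinates differ from those of the mm9 probes. Each sequence is the 250 bases before the start site, 5′ to 3′ on the gene's strand: chr7:143004796-143005045 for Tspan32, chr6:29693964-29694213 for Tspan33 and chr7:143052500-143052749 for Cd81, all on the plus strand. Capitals mark matches to the GATA motif, searched on both strands as GATA with A or T before it and A or G after it.
Tspan32: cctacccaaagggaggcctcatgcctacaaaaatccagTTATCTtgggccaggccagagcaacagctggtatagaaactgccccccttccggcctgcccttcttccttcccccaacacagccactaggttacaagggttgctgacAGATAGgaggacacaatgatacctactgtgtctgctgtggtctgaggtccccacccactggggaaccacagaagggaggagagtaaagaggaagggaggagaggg
Tspan33: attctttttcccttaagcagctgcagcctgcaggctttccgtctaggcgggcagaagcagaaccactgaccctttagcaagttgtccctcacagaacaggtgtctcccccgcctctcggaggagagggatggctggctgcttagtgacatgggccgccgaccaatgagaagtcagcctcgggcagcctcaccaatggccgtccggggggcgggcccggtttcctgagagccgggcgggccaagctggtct
Cd81: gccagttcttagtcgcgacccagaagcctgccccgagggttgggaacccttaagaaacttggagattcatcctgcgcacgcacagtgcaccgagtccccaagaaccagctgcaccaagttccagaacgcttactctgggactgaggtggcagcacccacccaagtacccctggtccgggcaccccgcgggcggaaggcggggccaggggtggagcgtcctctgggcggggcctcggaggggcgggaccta
The Tspan32 window held 2 matches, beginning 212 and 105 bases before the start, and those of Tspan33 and Cd81 held none. Of 32851 promoter windows of the same length, 26.5% held at least 1 such match. Cd37 and Cd53 each had 1 match, 88 and 26 bases before the start, and Cd37 did not pass the test while Cd53 was too dim for it. A CACC-type motif, CCNCNCCC on either strand, was present once in each of the 3 windows, at 57, 46 and 28 bases before the start in Tspan32, Tspan33 and Cd81, and in 45.9% of all windows. It overlapped no GATA match in Tspan32. A match is a string of letters and not a measured binding site.

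Beyond the 10 members, 21 other tetraspanin genes were on the array. Of these 9 were tested, 2 rose, 0 fell and 0 were lower at an unadjusted p under 0.05 by limma, with a median change of 0.21. A further 9 were not well above background on any array. The shares over all genes tested, 4.99% rising and 4.56% falling, are the background for the counts of this list and of those below. Rom1, which with peripherin shapes the disc rims of photoreceptors, read 4.91, 4.91 and 4.88 with Mi2β siRNA, against 2.93, 3.31 and 3.17 with control siRNA. It rose by 1.76 (SE 0.12, adjusted p = 0.00113 by limma) and passed under all 17 alternatives. Tspan18, a partner of the calcium channel Orai1 in endothelial cells, read -3.07, -2.83 and -3.05 with Mi2β siRNA, against -5.74, -4.54 and -4.90 with control siRNA. No probe of it was well above background on a control siRNA array. The bound for this dim probe, A_52_P274496, was 3.28-fold higher with Mi2β siRNA, or 1.71 on the log2 scale. It is not a firm least fold for the gene. Probe A_55_P2001583 gave a bound of 1.07-fold and A_55_P2000459 gave none, and the change with normexp background correction was smaller than 1.71. Tspan18 passed the detection filter through its Mi2β siRNA arrays alone, and a probe admitted that way can hardly be called lower. The adjusted p of 0.0128 by limma belongs to the fitted change of 2.07, which uses control siRNA signals not well above background. Its other probes were each well above background on 1 Mi2β siRNA array and were not tested. Tspan18 lies next to Cd82 on chromosome 2. Its fitted change was 0.46 with normexp background correction, and the call was lost in slide row 1 alone (adjusted p = 0.0902) and without Mi2β siRNA replicate 1 (adjusted p = 0.0606), within a range of 7.46e-05 to 0.0902 over its 16 alternatives. The TspanC8 relatives of Tspan33 that were tested did not pass: Tspan14 changed by -0.17 (adjusted p = 0.303), Tspan15 by 0.06 (adjusted p = 0.856) and Tspan17 by 0.39 (adjusted p = 0.101), all by limma.

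Of 28 known partners of tetraspanins on the array, 18 were tested, 5 fell and 2 rose, with a median change of -0.17. Adam10, the sheddase that TspanC8 tetraspanins carry, read 3.83, 3.78 and 3.81 with Mi2β siRNA, against 4.38, 4.68 and 4.37 with control siRNA. Its change was -0.67 (SE 0.12, adjusted p = 0.0211 by limma), so that Tspan33 and its partner were both lower on every Mi2β siRNA array than on any control siRNA array. The Adam10 call was lost without Mi2β siRNA replicate 1, 2 or 3 (adjusted p of 0.0956, 0.0729 and 0.061) and without control siRNA replicate 1 (adjusted p = 0.0603). It held in 9 of 17 alternatives, with adjusted p of 0.00215 to 0.22. The integrin β3 subunit Itgb3, a partner of Tspan32 in platelets as part of αIIbβ3, read 2.43, 2.52 and 3.01 with Mi2β siRNA, against 4.28, 4.42 and 4.39 with control siRNA. Its change was -1.72 (SE 0.17), and this call held under all 17 alternatives. The other subunit of that integrin, αIIb or Itga2b, went the opposite way and was named after its value was seen. It read -2.79, -2.21 and -2.51 with Mi2β siRNA, against -3.26, -4.45 and -4.33 with control siRNA. The groups did not overlap, and the change of 1.51 (SE 0.35) just missed the threshold (adjusted p = 0.0508 by limma). It passed in 6 of 17 alternatives, with adjusted p of 0.015 to 0.197. Its size depended on background correction: with normexp the change was 0.52 (adjusted p = 0.0271 by limma). Control siRNA replicates 2 and 3 read little above the lowest signals well above background on those arrays, -4.85 and -4.76. Itga4, an integrin subunit for fibronectin and VCAM-1, fell by 0.92 (SE 0.11), and Cd47, the surface signal that restrains phagocytosis, fell by 0.55 (SE 0.08), both on the log2 scale. The fifth, Itgb1, the integrin β1 subunit, fell by 0.47 (SE 0.10) and was named after its value was seen. The adhesion receptors Icam1 and Cd44 rose by 1.52 (SE 0.20) and 0.93 (SE 0.18). These calls rest on the brightest probe of each gene. In the fit per probe, both Itgb3 probes fell, as did 1 of 2 tested for Itga4, 1 of 2 for Itgb1 and 1 of 3 for Cd47, while 2 of 3 rose for Cd44, and the other tested probes of these genes changed in the same direction without passing. With each of the 6 arrays left out in turn, the calls of Itgb3, Itga4 and Icam1 held in all 6 fits, that of Cd47 in 3, that of Cd44 in 2 and that of Itgb1 in 0.

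Of 18 genes of endosomes and exosome release, all were tested, 3 fell and 1 rose, with a median change of 0.11. Rab27b, a small GTPase for granule and exosome secretion, read 0.70, 0.64 and 0.69 with Mi2β siRNA, against 2.04, 2.27 and 2.04 with control siRNA. It fell by 1.44 (SE 0.10) on the log2 scale, the largest fall of that list, and passed under all 17 alternatives. Hgs, which recruits the ESCRT machinery to endosomes, fell by 0.78 (SE 0.12), and Rab11a, a GTPase of recycling endosomes, by 0.65 (SE 0.11). Flot2, a flotillin of membrane rafts, rose by 0.77 (SE 0.09). With each array left out in turn, the calls of Rab27b and Flot2 held in all 6 fits, and those of Hgs and Rab11a in 2 each.

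**Figure D3:**
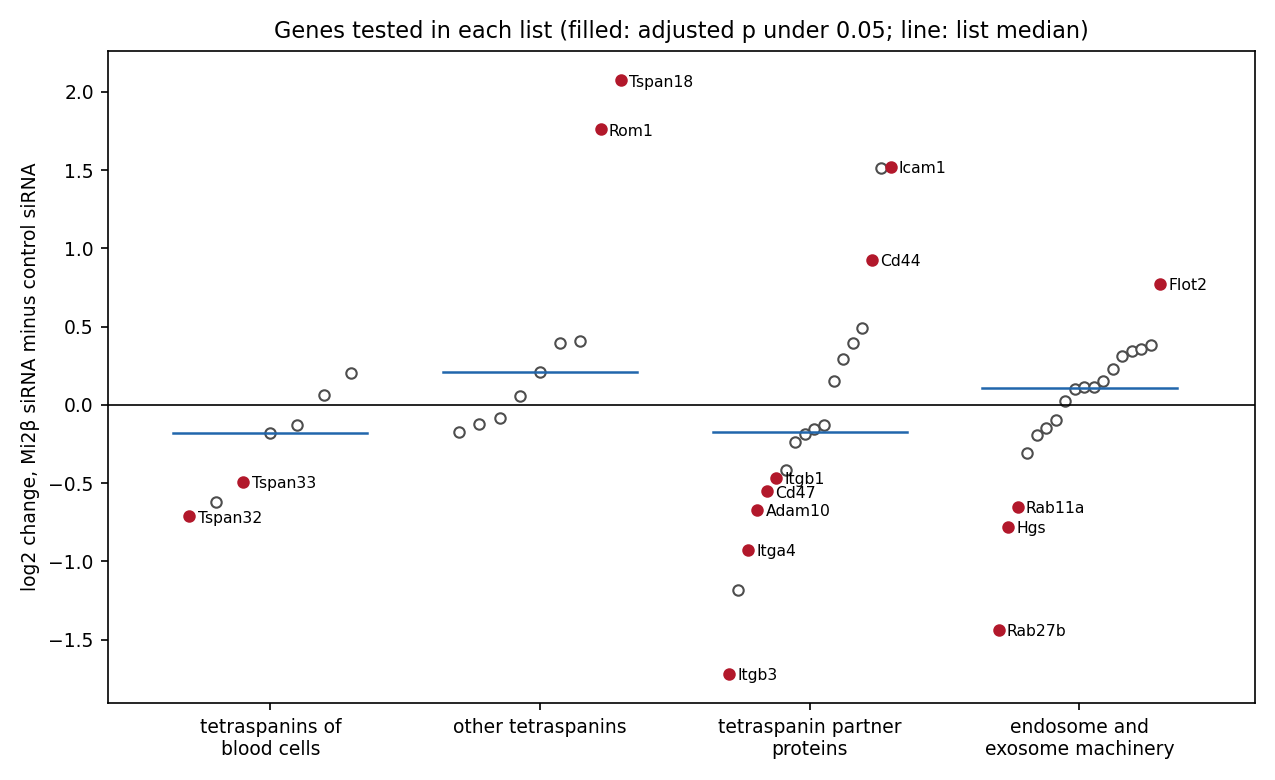
Change of every tested gene of 4 lists, as log2 of Mi2β siRNA minus control siRNA. Each point is a gene, filled where its adjusted p was under 0.05, and the line is the list's median, which was -0.18 for the tetraspanins of blood cells, 0.21 for other tetraspanins, -0.17 for partner proteins and 0.11 for the endosome and exosome genes.

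Markers of cell types known to carry tetraspanins were read beside these results. All 12 erythroid markers were well above background on all 6 arrays. Of these, 2 rose and 4 fell, with examples Alas2, the erythroid enzyme of haem synthesis, at 1.06 (SE 0.12), and Ahsp, the α-globin chaperone, at -1.11 (SE 0.12). The other rise was Hbb-bt, a β-globin gene with a near-identical copy, so its probe may read both. Slc4a1, Nfe2 and Tal1, the remaining falls, changed by -1.04, -0.78 and -0.50, calls that held in 13, 8 and 5 of 17 alternatives. Of 10 megakaryocyte and platelet markers, 8 were tested, 3 fell and 1 rose. Gp9 changed by -2.18, Pf4 by -1.62 and Gp1ba by -0.63, while Selp rose by 0.88 (SE 0.19, adjusted p = 0.0392 by limma). The Gp1ba call held in 8 of 17 alternatives and that of Selp in 6. The summed signal of the list was 6180 to 7697 with Mi2β siRNA, against 13984 to 17606 with control siRNA. Such sums add the linear background-subtracted signals of the tested genes, not scaled between arrays, so bright probes weigh most. In this list that was Pf4, at a mean level of 3.25 with Mi2β siRNA and 4.87 with control siRNA. Of 10 mast cell markers, 7 were tested, 4 rose and 0 fell, with 0 lower at an unadjusted p under 0.05 by limma. The mast cell protease Mcpt1 rose by 2.91 (SE 0.10), Mcpt4 by 2.70, Mcpt2 by 2.18 and Hdc by 2.05. Fcer1a and Ms4a2, which encode subunits of the IgE receptor, and Mcpt8 were not well above background on any array. The summed mast cell signal was 1995 to 2354 with Mi2β siRNA, against 527 to 587 with control siRNA. Of 12 macrophage and granulocyte markers, 6 were tested and Cd68 alone rose, by 0.53, with 0 falling and 1 lower at an unadjusted p under 0.05. Of 11 lymphocyte markers, 3 were tested and 0 passed, with 0 at an unadjusted p under 0.05, and the B cell marker Ms4a1 stood well above background on none of the arrays. The summed signals of the megakaryocyte and mast cell lists did not overlap between the groups, but such a gap was not particular to them. The erythroid sum was 924512 to 1033430 with Mi2β siRNA, against 747908 to 847047 with control siRNA. Sums of the members, other tetraspanins, partners and endosome and exosome genes were apart too, while those of the macrophage and lymphocyte lists overlapped. The 8 tested megakaryocyte markers went both ways with a median change of -0.24. What part these cell types had in the falls of Tspan32 and Tspan33 was not tested.

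**Figure D4:**
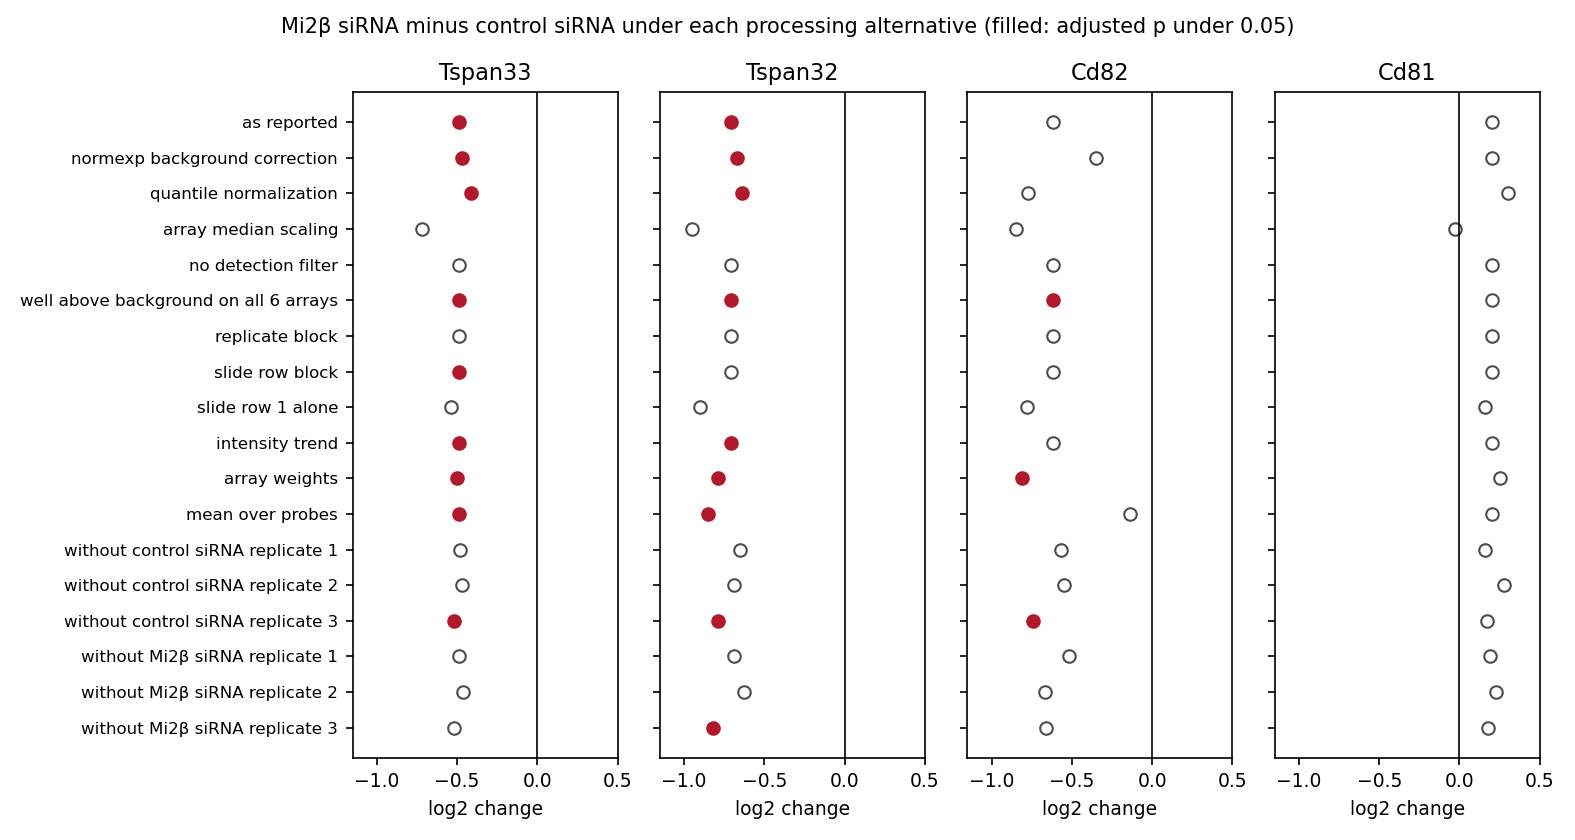
Change of Tspan33, Tspan32, Cd82 and Cd81 (log2 of Mi2β siRNA minus control siRNA) as reported and under each of the 17 processing alternatives, with filled points where the adjusted p was under 0.05. Tspan33 and Tspan32 lie below 0 in every row and are filled in 8 of the 17 alternatives each, whereas Cd81 lies near or above 0 and is filled in none.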

How the data were processed

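Total RNA was labelled with Cy3 and hybridised to 1-colour Agilent arrays. The deposited files give linear spot intensities that the scanner software had background-subtracted and that were not scaled between arrays. The file headers name this software as Feature Extraction 10.7.3.1. The submitters' processing notes name Feature Extraction and limma, but the settings are not given in the sources used here. A value table that the authors deposited repeats these intensities. The number of arrays limits the precision.

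Flagged outlier spots were dropped, replicate spots were averaged on the log2 scale, and each array's 75th percentile was subtracted. Probes well above background on 3 or more arrays entered a two-sided limma test (version 3.58.1, R 4.3.3) of the 2 groups with no covariate. Adjustment was by Benjamini-Hochberg, over 22133 genes or 31853 probes. The probe with the highest mean stood for its gene. Gene names were updated through RefSeq accessions (27509 of 29150 matched). The fit was tested on simulated data. Coordinates of probes are in mm9, per the file headers, and no genome of that build was used, so exons and untranslated regions are not given.

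The text names all members, Chd4, and from each list up to 4 rises and 4 falls by size. Some further genes are named outside this rule. The members and lists were chosen with earlier results of these data known. Deviations of same-numbered replicates from their group means had correlations of 0.21, -0.32 and 0.13. The numbers were not used as pairs, although these values cannot exclude pairing. All arrays were on 1 slide, in 2 rows that each held both groups. Alternatives covered background correction, scaling, the filter, the probe rule, the variance model, slide row and leaving out each array.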

Additional observations from a re-analysis of the deposited data

How the results depend on the processing

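Chd4 kept its call under all 17 alternatives (-1.54 to -1.23). The count of genes past the threshold, 2115 as reported, was 831 with arrays scaled to their median, 993 without the detection filter, 685 with the replicate block, 720 in slide row 1 alone, 3077 with normexp, 3306 with an intensity trend and 4729 with array weights, and 813 to 1579 when 1 array was left out. Tetraspanin probes past the threshold numbered 4 as reported, 1 with median scaling, with the replicate block, with slide row as a block and in row 1 alone, 0 without the detection filter, and 0 to 3 with 1 array left out. Tetraspanin genes that fell numbered 2 as reported, 0 with median scaling, without the filter, with the replicate block and in row 1 alone, 1 with the row as a block, 3 with the filter on all 6 arrays and with array weights, and 0 to 3 with 1 array left out. None rose under any alternative. With the replicate block, the adjusted p was 0.137 for Tspan32 and 0.133 for Tspan33. The labels do not say whether same-numbered samples of the 2 groups were paired. Median scaling moved the median of all genes to -0.27, from which Tspan32 lay -0.68 away, as it did with the 75th percentile, and gave an adjusted p of 0.181 for Tspan32 and 0.432 for Tspan33. Within slide row 1, which holds replicates 1 and 2 of both groups, Tspan32 changed by -0.90 (adjusted p = 0.0526) and Tspan33 gave an adjusted p of 0.102. Row 2 holds 1 array of each group and gives no test. The Tspan32 probe A_55_P2245852 kept its call in 12 of 16 alternatives. Signs turned for genes that never passed: Cd63 was -0.00 with normexp, -0.17 with median scaling and -0.12 to 0.27 with 1 array left out, including -0.03 without Mi2β siRNA replicate 2, Cd81 was -0.03 with median scaling, and the second Cd37 probe was -0.22 to 0.05 with 1 array left out. Over all alternatives, 1 to 6 partner genes fell and 0 to 4 rose, 1 to 4 endosome and exosome genes fell and 0 to 3 rose, 1 to 3 other tetraspanins rose, 4 to 5 mast cell markers rose, 2 to 3 megakaryocyte and platelet markers fell, and 1 to 5 erythroid markers fell. For calls that were lost, the cause was not tested. Tspan18 has no value with the filter on all 6 arrays. Dim probes limit what can be said of Cd53, Tspan3 and Cd9, which lie near background.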
